A study of Homo sapiens with 12 samples.

Results

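The early growth response (EGR) transcription factors EGR1, EGR2, EGR3 and EGR4 and the NGFI-A binding proteins NAB1 and NAB2 were followed by RNA sequencing in a pair of human non-small cell lung cancer lines, H460 and A549. These 6 genes, of 19973 in the expression table, were found by their symbols. They had been chosen from their FPKM (reads per gene, scaled by gene length and library total) in these same 12 libraries, so their levels and changes are described below with their spread and with no test. Where libraries of a member are said not to overlap or to be apart, this describes that gene only. The share of all genes separated in this way was not computed. H460 and A549 are established lines labelled as wild-type in genotype, and the study describes both as carrying inactivating mutations of KEAP1. The 4 groups, with 3 libraries in each, were non-treated H460, H460 given isovalerylspiramycin I (ISP-I), non-treated A549 and A549 given ISP-I. ISP-I, a macrolide and a component of carrimycin, was used at 10 µM for 48 h.

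EGR proteins are zinc finger factors that bind short GC-rich DNA sites. EGR1 is a classical immediate early gene: it is switched on within minutes of growth factor or stress signals, through serum response factor (SRF) and the ELK proteins acting on CArG boxes in its promoter, and it needs no new protein for this. NAB1 and NAB2 have no DNA-binding domain of their own. They bind an inhibitory domain that EGR1, EGR2 and EGR3 carry and repress transcription there, in part through the CHD4 subunit of the NuRD complex. NAB2 is itself known as a gene that EGR factors switch on, and the pair is known as a feedback brake.

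The promoter sequences were printed for the 5 members with an entry in the RefSeq table (build GRCh38.p14), because the known inputs to these genes, SRF and the EGR factors themselves, act at such sites. Each is read 5′ to 3′ on the strand of the gene and ends at the base before the first listed start, except that of EGR4, of which the 97 bases up to the gene as the expression table places it are shown. Capitals mark CArG boxes and short CREs in EGR1, EGR2 and EGR4, and EGR sites in NAB1 and NAB2.

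EGR1 chr5:138465229-138465478 (+): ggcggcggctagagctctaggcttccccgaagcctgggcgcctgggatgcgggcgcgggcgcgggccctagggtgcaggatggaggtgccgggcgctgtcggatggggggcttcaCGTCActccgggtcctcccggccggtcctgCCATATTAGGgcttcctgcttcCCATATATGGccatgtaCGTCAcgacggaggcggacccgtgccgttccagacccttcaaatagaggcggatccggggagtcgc
EGR2 chr10:62816367-62816616 (-): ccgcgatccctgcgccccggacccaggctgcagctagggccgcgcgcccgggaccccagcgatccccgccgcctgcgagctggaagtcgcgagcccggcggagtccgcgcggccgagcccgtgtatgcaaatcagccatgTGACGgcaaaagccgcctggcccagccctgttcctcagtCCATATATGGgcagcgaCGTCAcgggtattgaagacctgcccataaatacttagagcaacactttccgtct
EGR4 chr2:73293702-73293798 (-): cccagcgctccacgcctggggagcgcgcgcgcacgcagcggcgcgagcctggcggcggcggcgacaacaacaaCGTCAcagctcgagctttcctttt
NAB1 chr2:190648645-190648894 (+): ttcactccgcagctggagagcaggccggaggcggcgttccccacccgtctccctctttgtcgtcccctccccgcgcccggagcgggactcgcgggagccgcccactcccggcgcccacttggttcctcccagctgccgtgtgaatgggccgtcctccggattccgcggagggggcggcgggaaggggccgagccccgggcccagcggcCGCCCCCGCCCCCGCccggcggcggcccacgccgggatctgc
NAB2 chr12:57088864-57089113 (+): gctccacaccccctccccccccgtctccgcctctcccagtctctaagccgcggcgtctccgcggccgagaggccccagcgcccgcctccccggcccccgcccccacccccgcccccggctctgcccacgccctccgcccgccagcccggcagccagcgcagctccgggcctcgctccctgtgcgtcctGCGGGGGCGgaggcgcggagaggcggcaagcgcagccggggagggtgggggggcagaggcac

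The motifs searched, on both strands, were the CArG box, the EGR sites GCGTGGGCG and GCGGGGGCG, the cAMP response element (CRE) TGACGTCA and its core CGTCA, called the short CRE here, which the full CRE contains. In the 250 bases before its start, EGR1 held 2 CArG boxes, 105 and 83 bases upstream at their far ends, and 2 short CREs. EGR2 held 1 CArG box, 71 bases upstream of its first listed start, and 2 short CREs. A CArG box was found in 1.16% of the 35116 promoters of this table in a window of this length, and in 4.92% in the 1000 bases before the start, where EGR1 held 5 and EGR2 2. EGR4 held no CArG box in either window. It had 2 short CREs in the 250 bases, a motif that 21.2% of promoters held.

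The NAB promoters held matches to EGR sites. NAB1 had 2 overlapping matches to GCGGGGGCG, starting 42 and 36 bases before its first listed start, and a GCGTGGGCG match 175 bases before its second. NAB2 had 1 match to GCGGGGGCG, 62 bases before its start, and 2 more EGR sites within the 1000 bases. Either EGR site was found in 5.37% of promoters in the 250-base window and in 8.77% in the 1000-base window. EGR1 and EGR2 had no EGR site in the 250 bases and 1 each in the 1000. No full CRE was found before any listed start of these 5 genes, against 1.65% of promoters with one in the 250 bases. EGR2 and NAB1 have 3 listed starts each, and the FPKM do not tell which of them was used. The genes as measured begin at 190646746 for NAB1 and 57089043 for NAB2, upstream of the first RefSeq starts at 190648895 and 57089114. The NAB1 sites and the NAB2 site 62 bases before the start therefore lie inside the genes as measured. The GCGTGGGCG match of NAB1 also lies after its first RefSeq start.

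**Figure D1:**
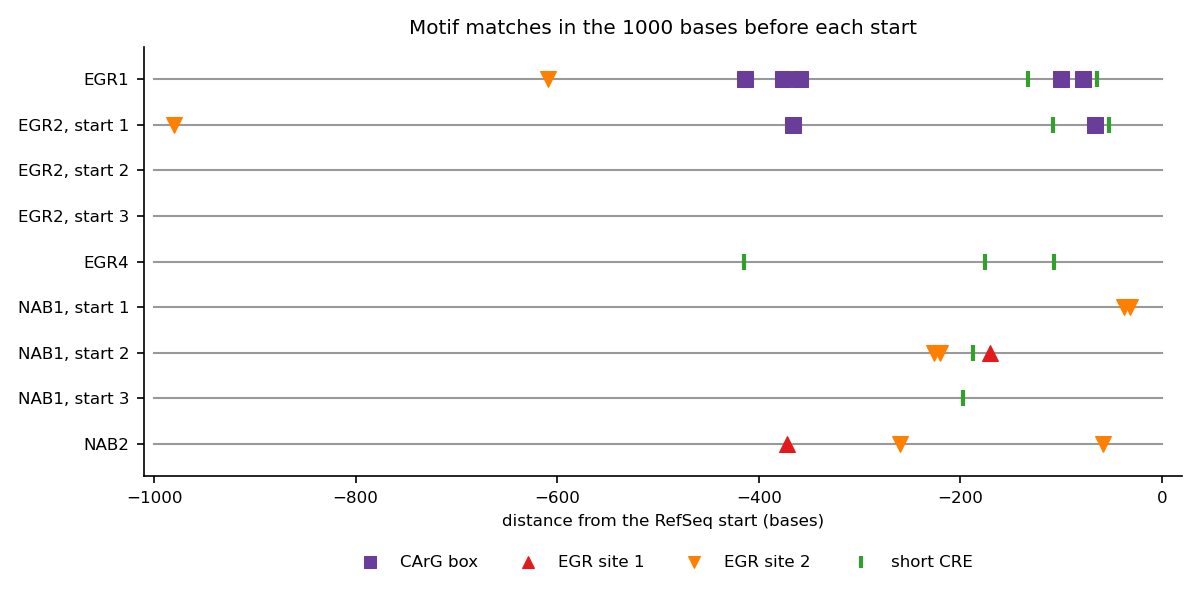
Motif matches in the 1000 bases before each listed start of EGR1, EGR2, EGR4, NAB1 and NAB2, by distance from the start in bases. EGR site 1 is GCGTGGGCG and EGR site 2 is GCGGGGGCG. The CArG boxes lie before EGR1 and the first start of EGR2, and the EGR sites nearest to a start lie before NAB1 and NAB2.

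The libraries held 14225849 to 17874422 reads on genes, and 14772 to 15897 genes had at least 1 read. Of the keratins of simple epithelium, KRT8 was at 168 to 748 FPKM and KRT18 at 66.9 to 418 over both lines, while KRT7 averaged 1.17 FPKM in H460 controls and 557 in A549 controls. CDH1 and EPCAM, which define epithelial cells, averaged 0 and 0.0473 FPKM in H460 controls and 4.90 and 1.91 in A549 controls, so both were at or near 0 in H460. Markers of other cell types were low. PTPRC and CD3E of immune cells stayed at or below 0.0368 FPKM in every library, and the 3 endothelial markers summed to 0.368 at most. CD14, PDGFRB and COL1A1 stood above this. CD14 averaged 5.92 FPKM in H460 controls and 1.26 with ISP-I, and PDGFRB 0.543 and 2.40 FPKM. COL1A1 was at 0.621 to 1.30 FPKM over all libraries. The part of these genes in the results was not tested. In bulk RNA, a change in the share of cells that express a gene and a change in RNA per cell cannot be told apart. The labels do not say whether the 3 libraries of a group came from separate cultures, so the spread given may be technical.

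EGR1, the most abundant of the 4 factors, went from a few FPKM to one of the highest levels in the H460 transcriptome. EGR1 (ENSG00000120738) lies at chr5:138465479-138469303 on the plus strand of hg38, the build of the files. Its level in the 3 H460 controls was 1.99, 2.50 and 2.23 FPKM, and in the 3 H460 libraries with ISP-I 796, 825 and 662 FPKM. The groups lay far apart: the lowest ISP-I library was 265 times the highest control. The means were 2.24 ± 0.252 and 761 ± 86.8 FPKM (SD, n = 3), a ratio of 339.8, or 8.41 on the log2 scale with an SE of 0.136. For each member, the log2 value is that of the ratio of mean FPKM. Its SE comes from the spread of log2 FPKM and so belongs to the difference of mean log2 FPKM. These 2 measures can differ where the controls hold few reads, as in EGR2 and EGR4. EGR1 stood 30th from the top of the H460 transcriptome with ISP-I and took 0.239% of all reads on genes there. In the limma fit described below, on log2(FPKM + 1), it had the largest rise of the 13423 genes tested in H460. This rank depends on the added constant, which draws genes with low controls toward 0. EGR4, at rank 7 there, had the larger ratio of means, 549.5.

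In A549, EGR1 was at 0.291, 0.694 and 0.604 FPKM in the controls and at 42.4, 39.0 and 45.0 with ISP-I. These groups did not overlap either, and all 3 controls were below the lowest H460 control. The ratio of the means, 0.53 ± 0.211 to 42.1 ± 3.04 FPKM (SD, n = 3), was 79.5, or 6.31 on the log2 scale (SE 0.393). The control value rests on 73 reads over 3 libraries. On log2(FPKM + 1), EGR1 ranked as the second largest rise of the 13705 genes tested in A549. The level of EGR1 in H460 was 4.22 times that in A549 without treatment and 18.1 times with ISP-I.

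EGR2, the factor required for myelination by Schwann cells, was close to absent without treatment and present with it. EGR2 (ENSG00000122877) is listed at chr10:62811996-62919900 on the minus strand, a span that runs past the outermost RefSeq start at 62819167. H460 controls had 0.0754, 0.0892 and 0.0182 FPKM, which is 10 reads in all. H460 with ISP-I had 17.2, 17.6 and 17.5 FPKM, the closest replicates of any member in any group. The ratio of the means was 286, with an exact 95% interval from the pooled reads of 155 to 597 that covers counting error only. The log2 ratio was 8.16 (SE 0.728). A549 controls had 0.0572, 0 and 0 FPKM, 3 reads in all, and A549 with ISP-I had 0.654, 0.743 and 0.869 FPKM from 125 reads. The groups were apart, and the pooled ratio of 40.5 had an exact interval of 13.5 to 199, wide because of the 3 control reads.

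EGR3, known for its part in the formation of muscle spindles, had the lowest level of the 4 factors with ISP-I in both lines. EGR3 (ENSG00000179388) lies on the minus strand of chromosome 8. H460 controls had 0.0414, 0.0392 and 0.0533 FPKM (10 reads), and H460 with ISP-I had 3.99, 4.40 and 3.64 FPKM (1000 reads). The groups were apart by a ratio of 89.8 between the means, 6.49 on the log2 scale (SE 0.158). In A549 no control library held a read, which allows up to 0.0136 FPKM (3 reads over the group). The ISP-I libraries had 0.173, 0.0887 and 0.0277 FPKM from 22 reads. Scaled for depth, these pooled reads were 7.13 times that floor of 3 reads, a value that leaves out counting error in the 22 reads. The exact 95% lower limit of the ratio was 5.32. EGR3 in A549 did not pass the filter on low values used for the fits and is the only member that did not pass in a line.

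EGR4, a factor with a known role in the development of male germ cells, had the largest ratio of the 6 genes in H460 and the widest spread. EGR4 (ENSG00000135625) lies at chr2:73290929-73293701 on the minus strand. Its levels were 0.0293, 0.277 and 0.113 FPKM in H460 controls and 65.2, 59.0 and 106 with ISP-I. The means of 0.14 ± 0.126 and 76.9 ± 25.8 FPKM (SD, n = 3) gave a ratio of 549.5, or 9.10 on the log2 scale (SE 0.979), but the control mean rests on 15 reads, and the exact interval of the pooled reads was 322 to 949.9. Without one library at a time the log2 ratio ran from 8.62 to 10.08. In A549, the controls had 0, 0 and 0.114 FPKM (4 reads) and the ISP-I libraries 0.536, 0.484 and 0.617 FPKM (58 reads), a pooled ratio of 14.1 with an interval of 5.22 to 53.4. With ISP-I, EGR4 in H460 was 141 times its level in A549, the widest gap between the lines of the 6 genes.

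**Figure D2:**
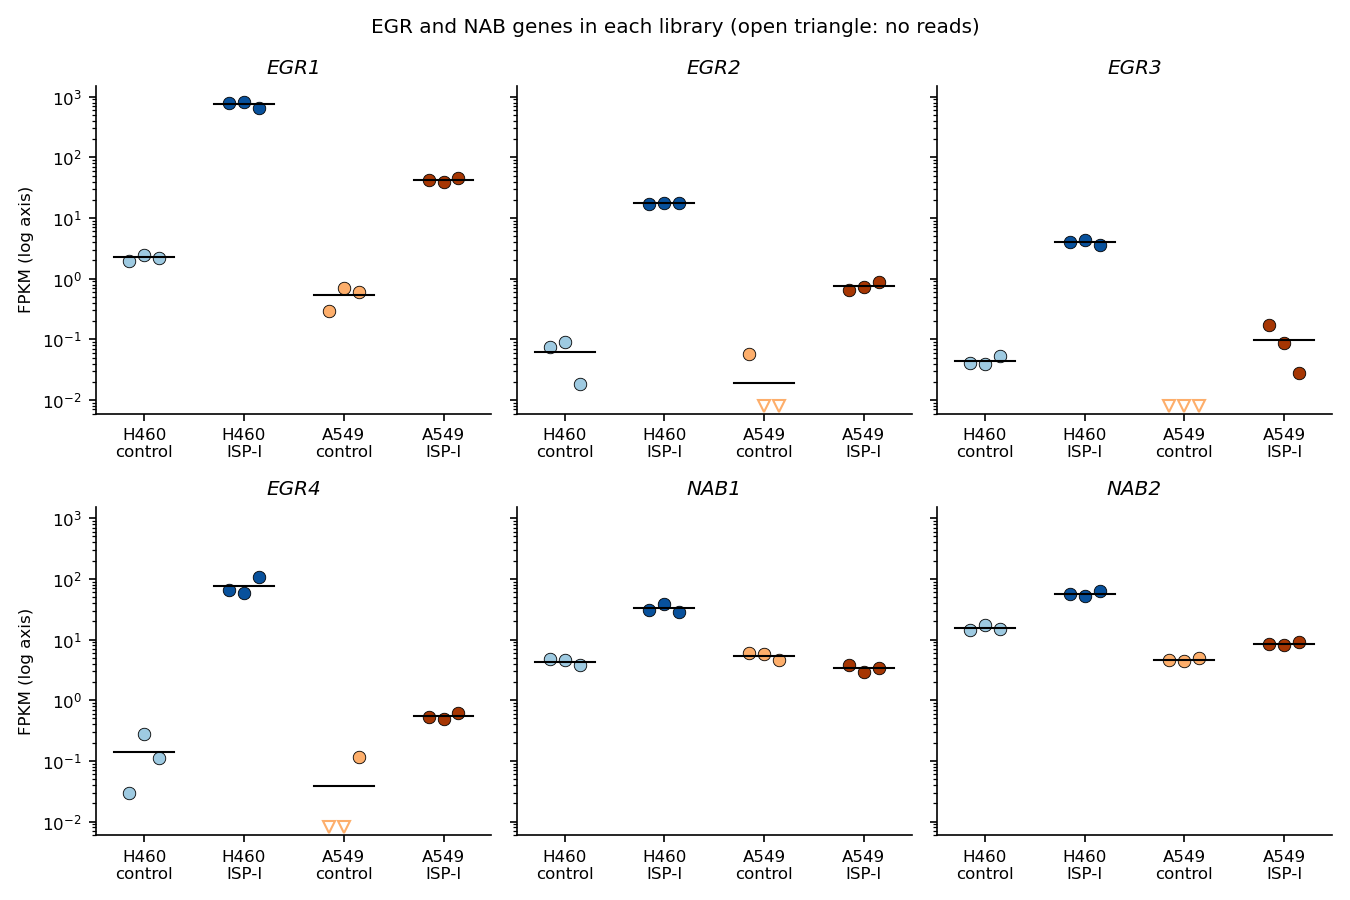
FPKM of each member in each library, on a log axis, by group. Each point is a library, the bar is the group mean and an open triangle marks a library with no reads. In H460 every member was higher in all 3 ISP-I libraries than in all 3 controls, while NAB1 in A549 was lower in all 3. The members were chosen on these values, and the share of all genes separated in this way was not computed.

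The NAB corepressors were present without treatment, and they moved by less than the factors. NAB2 (ENSG00000166886) lies at chr12:57089043-57095476 on the plus strand. It was at 14.1, 17.3 and 15.01 FPKM in H460 controls and at 55.6, 52.5 and 63.6 with ISP-I, with no overlap. The ratio of 15.5 ± 1.64 to 57.2 ± 5.73 FPKM (SD, n = 3) was 3.70, or 1.89 on the log2 scale (SE 0.119). In A549, NAB2 had 4.59, 4.35 and 4.95 FPKM in the controls and 8.40, 8.27 and 8.99 with ISP-I. These groups were also apart, at a ratio of 1.85, or 0.89 on the log2 scale (SE 0.0652).

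NAB1 was the one member whose direction differed between the lines. NAB1 (ENSG00000138386) lies at chr2:190646746-190692766 on the plus strand. In H460 it was at 4.69, 4.57 and 3.76 FPKM in the controls and at 30.9, 38.5 and 28.0 with ISP-I. Its mean there went from 4.34 ± 0.505 to 32.5 ± 5.41 FPKM (SD, n = 3), a ratio of 7.48, larger than that of NAB2 (log2 2.90, SE 0.169). In A549 the controls had 5.93, 5.87 and 4.52 FPKM and the ISP-I libraries 3.75, 2.96 and 3.40. The highest ISP-I library was below the lowest control, and the mean was 1.61-fold lower, at −0.69 on the log2 scale (SE 0.162). Leaving out each library in turn kept the A549 value between −0.81 and −0.61 and the H460 value between 2.76 and 3.00. The controls of both lines overlapped for NAB1, at 0.798 times the A549 level in H460, while the ISP-I libraries differed by a factor of 9.64.

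**Figure D3:**
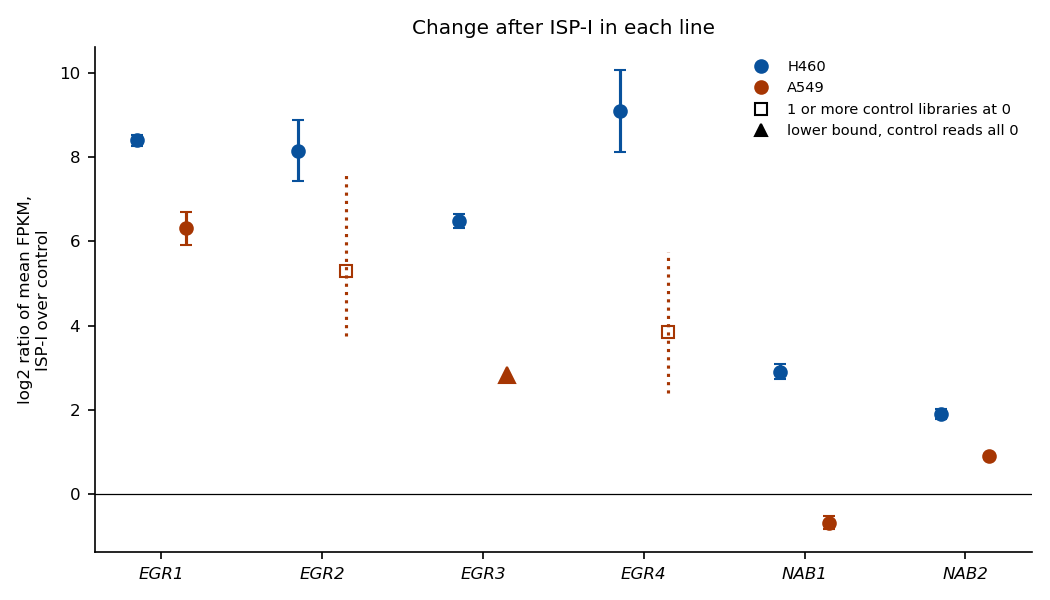
Log2 ratio of mean FPKM, ISP-I over control, for each member in H460 and A549. Bars are ±1 SE from the spread of log2 FPKM over 3 and 3 libraries, which belongs to the difference of mean log2 FPKM. Open squares with dotted lines show members with a control library at 0, with the exact 95% interval of the pooled reads. The triangle is EGR3 in A549 against the floor of 3 control reads, at 7.13-fold. It is not a strict lower bound, since the exact 95% lower limit was 5.32. In both lines the EGR factors lie above the NAB genes, and NAB1 in A549 lies below 0.

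The order of the 6 genes by level shifted with treatment. In H460 controls NAB2 was highest, then NAB1, then EGR1, and EGR4, EGR2 and EGR3 were below 0.3 FPKM with overlapping libraries. With ISP-I in H460, EGR1 was highest, followed by EGR4 and NAB2, whose libraries overlapped, then NAB1, EGR2 and EGR3. In A549 controls the libraries of NAB1 and NAB2 overlapped, with means of 5.44 and 4.63 FPKM. With ISP-I in A549 the order was EGR1, NAB2, NAB1, EGR2, EGR4 and EGR3, and no neighbours overlapped.

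EGR1 made up most of the summed FPKM of the 4 EGR genes in every group. Its share was 90.5% ± 3.91 in H460 controls, 88.4% ± 3.94 with ISP-I, 89.2% ± 9.32 in A549 controls and 96.8% ± 0.0855 with ISP-I (SD, n = 3). The share of EGR4 was 9.13% ± 3.79 in H460 with ISP-I and 1.25% ± 0.0667 in A549 with ISP-I. In H460, the ISP-I library with the lowest EGR1, 662 FPKM, was the one with the highest EGR4, 106 FPKM, and there EGR4 took 13.5% of the sum.

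The sum of the factors passed that of the corepressors in both lines. The summed EGR level over the summed NAB level was 0.125 ± 0.01 in H460 controls and 9.59 ± 0.85 with ISP-I (SD, n = 3). In A549 it was 0.059 ± 0.0227 in controls and 3.65 ± 0.0935 with ISP-I. The balance of the corepressors moved in opposite directions. NAB2 was 3.60 ± 0.516 times NAB1 in H460 controls and 1.81 ± 0.453 times with ISP-I, while in A549 the ratio went from 0.87 ± 0.195 to 2.56 ± 0.287. The groups of each line did not overlap in this ratio. These are mRNA levels, and protein was not measured in these files.

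**Figure D4:**
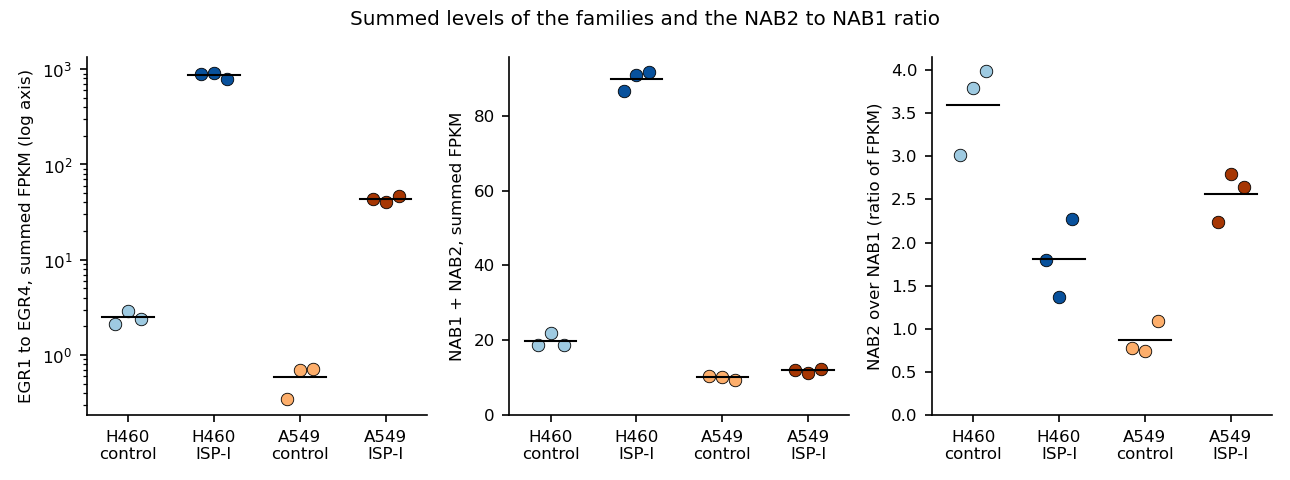
Summed FPKM of EGR1 to EGR4 (log axis), summed FPKM of NAB1 and NAB2, and the ratio of NAB2 to NAB1, by group. Points are libraries and bars are means. The NAB2 to NAB1 ratio went from 3.60 to 1.81 in H460 and from 0.87 to 2.56 in A549.

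Genes that are not members were compared by limma on log2(FPKM + 1), adjusted by Benjamini-Hochberg over all genes tested, and called where the fold exceeded 2 and the adjusted p was below 0.05. In H460, 10.5% of the genes tested were called up and 15.2% down. In A549 the shares were 4.2% up and 3.51% down. By these rules the change was more positive in H460 than in A549 for 5.93% of genes and more negative for 10.1%. The median log2 fold change over all genes was −0.15 in H460 and 0.02 in A549. Under median-of-ratios scaling the H460 median moved to 0.01, and the share of higher calls there went from 40.8% to 56.5%. Between the lines, the calls turned from 827 more positive and 1407 more negative in H460 to 1298 and 825. The lists below were written with earlier results of these data known, and are given as counts and medians beside these shares. List counts at an unadjusted p under 0.05 and any fold are also given, but the share of all genes at that threshold was not computed. In every list below, these counts therefore cannot be set against all genes, and nothing is concluded from them. Limma voom on recovered reads called 3056 of 12939 genes higher and 2769 lower in H460. In A549 it called 1316 of 13138 higher and 1277 lower.

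SRF and its partners, which act upstream of EGR1, were not called in either line. Of 7 genes listed, 6 were tested, and MYOCD was below the filter. Of all genes tested, 10.5% were called up and 15.2% down in H460, and 4.2% and 3.51% in A549. For a list this short, no call is close to these shares. SRF itself was at 13.9 ± 1.56 and 14.8 ± 1.99 FPKM in H460 (SD, n = 3), a log2 fold change of 0.08 (limma SE 0.138), and at −0.26 (SE 0.0842) in A549. ELK1 was at 0.21 in both lines on this scale. ELK3 and ELK4, ETS factors that join SRF on DNA, were at 0.79 and 0.83 in H460 and 0.50 and 0.87 in A549, short of the fold threshold. In H460 both passed it when FPKM were scaled by median-of-ratios (1.04 and 1.08). MRTFA, an actin-regulated SRF coactivator, was at 0.55 in H460 and −0.47 in A549, and the difference of 1.02 between the lines was called (adjusted p = 4.77e-05, limma). MRTFB was at −0.66 and −0.33. At an unadjusted p under 0.05 and any fold, limma had 3 of the list higher and 1 lower in H460, while in A549 it had 2 and 3, and limma voom on reads called 2 higher in H460 and 0 in A549. These values give mRNA only. Activity of these factors was not measured.

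The other immediate early genes that passed the test were all higher with ISP-I in both lines. Of 33 tested, 28 rose and none fell in H460, against 10.5% and 15.2% of all genes, and 15 rose and none fell in A549, against 4.2% and 3.51%. At an unadjusted p under 0.05 and any fold, limma had 2 lower in H460 and 5 in A549, and voom called 0 and 1 lower. The median log2 fold change of the list was 2.13 in H460 and 0.87 in A549. The change was called more positive in H460 for 19 of the genes and more negative for none. Of all genes tested, 5.93% and 10.1% were called in these directions. ARC, a regulator of synaptic receptors, rose most in both lines. It went from 0.592 ± 0.149 to 121 ± 21.4 FPKM in H460 (log2 fold change 6.25, limma adjusted p = 6.96e-08, n = 3) and by 3.80 in A549 (adjusted p = 5.25e-08). FOS and JUN, which form AP-1, rose by 5.31 and 4.97 in H460. They rose by 1.58 and 1.54 in A549. ATF3, a stress-induced repressor, rose by 3.65 in H460 and 3.08 in A549, and DUSP5, a nuclear ERK phosphatase, by 2.28 and 2.42. In H460, the 5 not called were JUND, NR4A2, BTG2, SGK1 and KLF2, named here after their values were seen, at −0.51 (KLF2) to 0.85 (SGK1).

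Genes known as EGR targets moved in both directions. In H460, 6 of 27 tested rose and 4 fell, 22.2% and 14.8%, beside 10.5% and 15.2% of all genes. In A549, 2 of 26 rose and 2 fell, 7.69% each way, beside 4.2% and 3.51%. The median log2 fold change was 0.17 in H460 and −0.08 in A549. Among the rises in H460 were those of CD274, which encodes PD-L1 (3.50, SE 0.147), and GADD45B, a stress-response gene (3.30, SE 0.216). CD274 went from 3.35 ± 0.382 to 48.6 ± 8.06 FPKM in H460 (SD, n = 3) and was at 0.201 and 0.756 FPKM in the A549 control and ISP-I means. In H460 the falls were led by ID3, an inhibitor of basic helix-loop-helix factors (−2.84, SE 0.225), PTGES, which makes prostaglandin E2 (−2.00, SE 0.179), and FN1, fibronectin (−1.88, SE 0.201).

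In A549 the called targets were GDF15, a stress cytokine, which rose by 2.04, PTGES, and, lower, FN1 at −1.75 and THBS1, thrombospondin, at −1.45. FN1 fell in both lines, and the difference of −0.13 between them was not called (adjusted p = 0.645, limma). PTGES, a target lower in H460, was higher in A549 by 1.004 (SE 0.0981), just past the threshold. Under median-of-ratios scaling it was at 0.97 and not called, and without one library at a time it ran from 0.94 to 1.11. The difference between the lines for PTGES was −3.00 (adjusted p = 5.12e-07). Of all 27 targets tested between the lines, 5 had a more positive and 3 a more negative change in H460. Over all genes tested, the shares were 5.93% and 10.1%.

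EGR2 is best known for the myelin genes it switches on in Schwann cells. None of the 5 tested in H460 or the 4 tested in A549 was called, with medians of 0.08 and 0.71. Of all genes, 10.5% were called up and 15.2% down in H460, and 4.2% and 3.51% in A549. For so few genes, no call is close to these shares. At an unadjusted p under 0.05 and any fold, limma had 2 higher and 1 lower in H460 and 3 higher in A549, and voom called 2 higher in each line. MBP was at 0.89, PMP22 at 0.75 and MAG at 0.68 in A549, below the fold threshold. PMP22 was at −0.57 in H460, and its difference of −1.32 between the lines was called (limma adjusted p = 1.86e-06). MAG had no reads in either control group and averaged 0.391 FPKM in H460 and 0.607 in A549 with ISP-I. These genes were named after their values were seen.

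Of the NuRD complex, through which NAB proteins are known to repress, 3 of 14 subunits fell in H460 and none rose. The share of 21.4% lower stands beside 15.2% of all genes, and the absence of a rise beside 10.5%. The 3 were HDAC1, a histone deacetylase (−1.80, SE 0.107), CHD3, a chromatin remodeller (−1.37, SE 0.116), and MTA1 (−1.32, SE 0.135). HDAC1 went from 26.0 ± 1.81 to 6.72 ± 0.181 FPKM (SD, n = 3). In A549 none was called, beside 4.2% of all genes called up and 3.51% down. HDAC1 was just short at −0.998 there, and CHD3 was at −0.88. CHD4, the subunit NAB proteins bind, was listed at 0.553 ± 0.0659 FPKM in H460 controls and 0.285 ± 0.0482 with ISP-I, and at 0.512 and 0.538 FPKM in A549. Its log2 fold change of −0.27 in H460 was not called. CHD3 was at 42.6 FPKM in H460 controls and 28.1 in A549 controls. Whether the low CHD4 values reflect its RNA level or the counting was not tested. At an unadjusted p under 0.05 and any fold, limma had 1 higher and 9 lower in H460, while in A549 it had 1 and 5. These have no share of all genes at the same threshold beside them. Voom called 1 higher and 4 lower in H460. In A549 its calls were 0 higher and 1 lower. The median of the 14 was −0.40 in H460 and −0.13 in A549.

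WT1 and the SP factors recognise GC-rich sites that overlap those of EGR proteins. Of the 5, SP2 (1.36, SE 0.136) and SP3 (1.01, SE 0.198) rose in H460 and none was called in A549, where SP2 was at −0.27 and SP3 at −0.02. The 2 make 40% of this short list, beside 10.5% of all genes called up in H460. In A549, 4.2% of all genes were called up and 3.51% down. At an unadjusted p under 0.05 and any fold, limma had 1 of the list higher and 2 lower in A549, and voom called 0. SP3 lay at the threshold, and without one library at a time it ran from 0.84 to 1.19. SP1 was at 18.5 ± 0.33 and 22.2 ± 2.67 FPKM in H460 (SD, n = 3), a log2 fold change of 0.25 that was not called. WT1 stayed at or below 1.03 FPKM in the mean of every group.

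**Figure D5:**
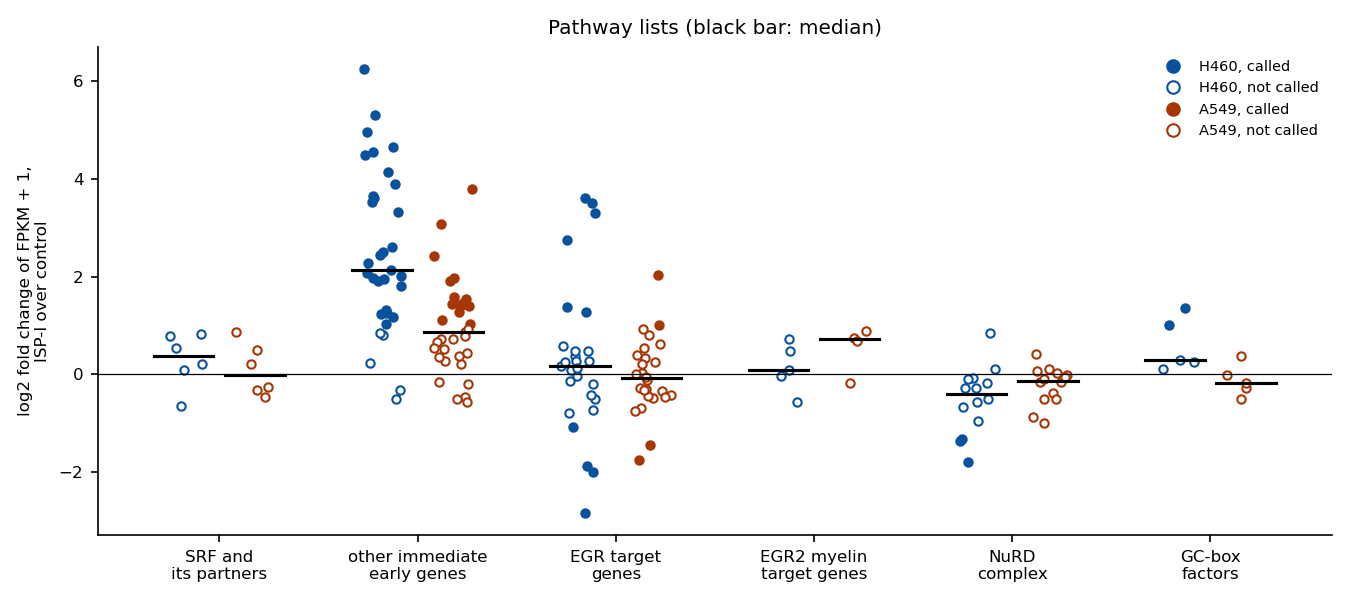
Log2 fold change of FPKM + 1 (ISP-I over control) for each tested gene of the 6 lists, in H460 and A549. Filled points were called, open points were not, and bars are list medians. The immediate early genes have medians of 2.13 and 0.87, and the EGR targets spread on both sides of 0.

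The genes next to the members on the chromosome were examined for shared changes. Beside EGR1, ETF1, a translation termination factor 36792 bases away, rose in H460 by 1.22 (limma adjusted p = 0.000143), and REEP2 on the other side was at 0.02. Beside EGR2, NRBF2, an autophagy factor, rose in H460 by 1.62 (adjusted p = 1e-05), and ADO was at 0.88. Next to NAB1, NEMP2 was at 0.37 in H460 and −0.29 in A549, neither called. The neighbours of EGR3 (BIN3 and PEBP4) and EGR4 (FBXO41 and ALMS1) were not called in either line, PEBP4 being below the filter. None of the neighbours named here was called in A549.

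NAB2 shares 69 bases with STAT6, a cytokine-activated transcription factor gene on the opposite strand (chr12:57095408-57132139). Since the strand setting of the counting was not stated, reads in the shared stretch cannot be assigned to one of them with certainty. STAT6 fell in H460 by 1.51 on the log2 scale (47.2 ± 2.97 to 15.9 ± 0.857 FPKM, limma adjusted p = 6.59e-06, n = 3), while NAB2 was higher there. In A549 STAT6 was at 0.12 (adjusted p = 0.216). NEMP1, on the other side, was at 0.42 and −0.22, and LRP1 at −0.88 and −0.05, neither called.

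For each member, the 3 genes with the most similar profile over the 4 group means were found among 10593 genes, as the smallest root mean square difference of centred log2(FPKM + 1). The genes nearest to EGR1 were IL24, a cytokine of the IL10 family (0.76), VGF, a neuropeptide precursor (0.87), and ARC (0.89). IL24 averaged 0.239 and 115 FPKM in H460 and 0.0115 and 16.4 in A549, control and ISP-I. For EGR2 they were C7orf57 (0.10), the histone demethylase gene KDM6B (0.16) and IER3 (0.20). For EGR3 they were LIF (0.02), PTGS2 (0.10) and ACVR1 (0.10), and for EGR4 NID1 (0.54), INHBA (0.59) and FOS (0.64). The genes nearest to NAB1 were TSC22D1 (0.19), REL, an NF-kB subunit (0.20), and KLHL4 (0.23). Each of these 3 was called higher in H460, by 2.005 to 2.36, and had a negative, uncalled value in A549, from −0.60 to −0.10. They were picked for a profile like that of NAB1, so these directions follow from the choice. For NAB2 they were PTPRH, WASHC2A and RIT1, each at 0.07. The choice depends on the added constant: with 0.1 in place of 1, the 3 genes shared were 2 for EGR1, 1 for EGR2, 0 for EGR3 and EGR4, and 2 for each NAB gene.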

How the data were processed

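RNA of non-treated and ISP-I-treated H460 and A549 cells was sequenced in 3 libraries per group (12 libraries). The authors used FastQC for read quality, HISAT2 for alignment (hg38) and HTSeq 0.9.1 for counting, and deposited FPKM. Annotation version and strand setting are not given in the sources used here. FPKM times gene length was a whole multiple of 1 step per library for 100% of values (tolerance 0.001 of a read), so reads were recovered. These totalled 14225849 to 17874422 per library. Intervals and floors of 3 reads cover counting error only. Of the table lines, 4 were fragments of annotation and were left out. Gene length, another unit deposited by the authors, is in bases.

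Columns give line and treatment only, so libraries were numbered by their order. Members and lists were chosen with earlier results of these data known. Members got no test. Other genes were tested with limma 3.58.1 (R 4.3.3, trend) on log2(FPKM + 1), where the mean over the libraries reached 0.1 FPKM, with Benjamini-Hochberg adjusted p, within each line, and by the interaction over all libraries. p-values measure the spread between these libraries. The fit was tested on simulated data, with changes above the fold threshold placed in genes expressed in the controls of both lines. That simulation does not cover genes with low values or calls near the threshold. Named were all members, SRF and its partners, up to 3 called genes per list, line and direction with a mean of at least 1 FPKM, adjacent and overlapping genes, and the 3 genes of most similar profile. A few genes that these rules name are not reported here but stay in the counts. Lists came from general knowledge (95 genes in 6 lists). Promoters were those of the RefSeq table, which matched hg38. Alternatives were 0.1 as the pseudocount, a filter at 1 FPKM or none, median-of-ratios scaling, limma voom on recovered reads, and leaving out each library. Tables were read with pandas 2.3.3 under Python 3.11.15.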

Additional observations from a re-analysis of the deposited data

Results flagged for a closer look

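NAB1 was higher with ISP-I in all 3 H460 libraries and lower in all 3 A549 libraries than the controls, a difference of 3.59 on the log2 scale that was not tested, since NAB1 was chosen on these values.

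The other values here are differences of the ISP-I change, H460 minus A549, in log2(FPKM + 1), each called by the limma interaction with Benjamini-Hochberg adjustment. Of the immediate early genes, FOS differed by 3.73, JUN by 3.43 and ARC by 2.45. Among the EGR targets, CD274 differed by 2.95, GADD45B by 2.37, THBS1 by 1.62, ID3 by −2.52 and PTGES by −3.00. PTGES was called in opposite directions in the lines. PMP22, a myelin gene, differed by −1.32. SP2 differed by 1.64, SP3 by 1.03 (adjusted p = 0.00953, the largest of this group) and MRTFA by 1.02. STAT6, which overlaps NAB2, differed by −1.63.

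Among the genes with profiles similar to a member's, INHBA differed by 6.44 (adjusted p = 3.14e-09), NID1 by 4.38, IER3 by 3.82, C7orf57 by 3.10, KDM6B by 2.81, KLHL4 by 2.60, REL by 2.53, TSC22D1 by 2.46, IL24 by 2.44, PTGS2 by 2.28, VGF by 2.21, LIF by 2.11, ACVR1 by 1.74, PTPRH by 1.20 and WASHC2A by 1.12. These genes were picked for such profiles, so their differences follow from the choice.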

How the results depend on the processing

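No paired analysis was possible because the columns carry no replicate number of the labels. None of the alternatives tried reversed the direction, within a line, of a member or of a called gene named from the lists. Other called genes and the differences between the lines were not checked for this. SP3 in A549, near 0 and not called, ran from −0.22 to 0.09 with a library left out. The 64 member values that could be computed with a library left out stayed within the limits set for them. These limits were the spread between replicates, except for EGR2 and EGR4 in A549, where some control libraries held no reads. There the limit was the exact interval of the pooled reads, which covers counting error only. For both genes, leaving out the only A549 control library with reads gave no value. EGR3 in A549, with no control reads, was not evaluated. With 0.1 in place of 1 as the added constant, calls in H460 numbered 2322 higher and 3464 lower, in A549 1336 and 1062, and between the lines 1451 and 2788. With limma voom on recovered reads, higher calls in H460 were 3056, calls in A549 1316 and 1277, and more positive changes in H460 2114. With median-of-ratios scaling, changes called between the lines were 1298 more positive and 825 more negative in H460, the opposite balance to 827 and 1407.

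In the lists, median-of-ratios scaling called ELK3 and ELK4 higher in H460 (2 genes, also 2 by voom), 1 EGR target higher in A549, 8 targets more positive in H460, and of NuRD 1 higher in H460 and 1 lower in A549. Voom called 1 immediate early gene lower in A549, 10 EGR targets higher in H460, 4 lower in A549 and 9 more positive in H460, 2 myelin genes higher in each line (2 and 2), and of NuRD 1 higher in H460 and 1 lower in A549. The constant of 0.1 called 4 EGR targets higher and 4 lower in A549 and 9 more positive in H460, 1 and 2 myelin genes higher in H460 and A549, and 5 NuRD genes lower in H460 and 1 in A549. Leaving out a library gave 1 to 2 EGR targets higher in A549 (PTGES lost), 5 to 7 more positive and 2 to 3 more negative in H460, 0 to 1 NuRD gene lower in A549 (HDAC1) and 1 to 2 GC-box factors higher in H460 (SP3 lost).

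For the members in H460, EGR1 was at 8.69 by median-of-ratios, 8.68 by voom and 7.87 on log2(FPKM + 1), EGR3 at 6.77 by median-of-ratios, and NAB2 at 2.17 by median-of-ratios and 2.17 by voom. The log2(FPKM + 1) scale drew low genes toward 0: EGR2 to 4.12, EGR3 to 2.26 and EGR4 to 6.05 in H460, and EGR1 to 4.82, EGR2 to 0.78, EGR4 to 0.58 and NAB2 to 0.76 in A549. Depth limits EGR2, EGR3 and EGR4 in the controls, where each had 15 reads or fewer per group.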
